A study of Mus musculus with 2 samples.

Results

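Single-cell RNA sequencing of mouse lung was read here for 9 genes of the S100 family of calcium-binding proteins: S100a1, S100a4, S100a6, S100a8, S100a9, S100a10, S100a11, S100a13 and S100g. They were taken by name, whatever their values, from a gene list of 27999 entries that is the same in both libraries, and all 9 had at least 1 unique molecular identifier (UMI, the tag that counts 1 captured RNA molecule) in each library. Another 9 genes with symbols that start with S100 were listed and not chosen. The lungs came from female FVB/NJ mice, 10 weeks old when Met-1 cells were injected intravenously. Met-1 is a mouse mammary carcinoma line derived from an MMTV-PyMT tumour, and it seeds the lung directly when given by this route, without a primary tumour. The low burden lung was taken at week 1 and the high burden lung at week 3, with 1 mouse and 1 library each. No uninjected lung was analysed here. Burden, time after injection, mouse and library therefore cannot be told apart, no difference between the libraries could be tested, and every interval below is a 95% interval that covers counting error only.

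S100 proteins are small EF-hand proteins that mostly act as dimers. When calcium binds, they open a surface that docks partners such as annexins or myosin. In the lung, S100a8 and S100a9 are best known as the abundant cytosolic pair of neutrophils and monocytes, S100a4 has been used as a fibroblast marker under the name Fsp1 and is also made by leukocytes and by motile tumour cells, and S100g, the calbindin of vitamin D responsive gut, is made by alveolar type 2 (AT2) cells. The comparison asked where in the lung each member was made, and how that differed between a low and a high metastatic burden.

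The low burden library held 2668 cells and 14041471 UMIs, and the high burden library 3121 cells and 52723173 UMIs. After a filter on detected genes and mitochondrial share, 2473 cells with a median of 4073 UMIs and 3033 cells with a median of 13998 UMIs were kept. Cells were put into classes from marker genes of their clusters, with the S100 genes left out of the clustering, and 17 classes were named. Names are written as "-like" because they were rebuilt from markers, and 162 low and 225 high burden cells in clusters with markers of several classes stayed mixed, while 137 and 161 stayed unnamed. No neutrophil-like cluster was found. Metastatic carcinoma-like cells numbered 0 at low and 1395 at high burden, where they held 63.9% of the UMIs. Both libraries shared 11 cell barcodes, and leaving those cells out did not change the count of called differences. Levels are given as CPM, the UMIs of a gene per 1000000 UMIs of the class. A ratio is the high burden CPM over the low burden CPM on the log2 scale, and a member is called higher or lower when it differs by at least 2-fold in a class with at least 20 cells in each library, has at least 50 UMIs there, and is found in at least 10% of the cells in either library.

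Of the 9 genes, 8 lie on chromosome 3 and 6 of these sit within 185 kb (mm10, chromosome 3, 90511034 to 90695721), in the order S100a1, S100a13, S100a4, S100a6, S100a8 and S100a9. S100a11 (93520488 to 93526287) and S100a10 (93555080 to 93564643) lie together further along, and S100g lies on chromosome X (162961992 to 162964599), where it overlaps Ctps2 on the opposite strand. S100a4 (90603771 to 90606045) overlaps a predicted gene, Gm42674, on its own strand, so reads that fit both could have been lost from its count. Promoter windows of 300 bases (250 before and 50 from the annotated start) were found in RefSeq, build GRCm38.p6, for 8 of the 9 members. They are shown for neighbours whose levels are set side by side below. S100a1 and S100a13 are transcribed away from each other from starts 105 bases apart, and their windows share 204 bases (chr3:90514281-90514484), given here on the plus strand, the strand of S100a13, with none of the searched motifs in it.
S100a1 and S100a13, shared stretch: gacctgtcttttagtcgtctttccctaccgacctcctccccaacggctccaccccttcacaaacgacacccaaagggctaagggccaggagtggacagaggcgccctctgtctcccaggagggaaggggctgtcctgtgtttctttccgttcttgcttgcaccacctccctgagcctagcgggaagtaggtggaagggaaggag
The windows of S100a4 (chr3:90603520-90603819, plus strand) and S100a6 (chr3:90612644-90612943, plus strand) follow, with TATAAA in capitals. The letters TATAAA start 31 bases before the start of S100a4 and are absent from the S100a6 window.
S100a4: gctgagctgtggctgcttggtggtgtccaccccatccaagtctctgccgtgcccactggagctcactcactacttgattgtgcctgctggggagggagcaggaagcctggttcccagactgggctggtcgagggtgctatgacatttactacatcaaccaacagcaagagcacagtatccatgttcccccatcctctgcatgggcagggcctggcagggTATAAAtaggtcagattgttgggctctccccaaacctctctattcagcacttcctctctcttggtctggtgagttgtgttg
S100a6: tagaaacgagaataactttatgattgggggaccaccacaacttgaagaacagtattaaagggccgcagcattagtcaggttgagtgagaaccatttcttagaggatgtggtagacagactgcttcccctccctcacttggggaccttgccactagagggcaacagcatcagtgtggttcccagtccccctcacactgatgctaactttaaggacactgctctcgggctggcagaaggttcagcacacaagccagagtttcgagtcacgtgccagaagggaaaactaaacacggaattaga
The windows of S100a8 (chr3:90668821-90669120, plus strand) and S100a9 (chr3:90695672-90695971, minus strand) each hold TATAAA in capitals, 30 bases before the start of S100a8 and from the first base of S100a9 as annotated.
S100a8: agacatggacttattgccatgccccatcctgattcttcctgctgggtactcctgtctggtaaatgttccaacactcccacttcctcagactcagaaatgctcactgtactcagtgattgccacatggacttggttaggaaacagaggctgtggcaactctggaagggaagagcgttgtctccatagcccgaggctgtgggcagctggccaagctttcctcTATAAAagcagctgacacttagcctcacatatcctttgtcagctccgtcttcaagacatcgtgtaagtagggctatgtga
S100a9: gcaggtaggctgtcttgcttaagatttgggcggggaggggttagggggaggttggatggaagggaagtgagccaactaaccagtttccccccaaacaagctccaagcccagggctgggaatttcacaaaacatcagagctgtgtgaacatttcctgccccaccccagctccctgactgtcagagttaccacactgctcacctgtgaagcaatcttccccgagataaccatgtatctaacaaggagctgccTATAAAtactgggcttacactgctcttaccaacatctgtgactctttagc
Read on both strands, TATAAA is in 13.6% of all 32817 promoter windows of this length, the AP-1 letters TGAGTCA or TGACTCA in 5.20%, CCAAT in 37.4% and the GC box letters GGGCGG in 35.6%. Of the 8 members with a window, TATAAA was found in 4 (S100a4, S100a8, S100a9 and S100g), the AP-1 letters in S100a11 alone, at 136 and 38 bases before its start, CCAAT in S100a6 alone, and GGGCGG in S100a9 and S100a11. A match of letters is a description of the window and not a binding site.

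Each member had its own distribution over the lung, and for 4 of the 9 (S100a1, S100a4, S100a6 and S100g) the interval of the highest class at low burden lay above that of the next class. For S100a8 it did so with all cells, and overlapped the next without the cells of a neutrophil gate that is described below. Classes with at least 10 cells in a library were ranked, and some were small. Mesothelial-like cells numbered 14 at low and 13 at high burden, club-like cells 15 and 23, ciliated-like cells 56 and 11, and smooth muscle or pericyte-like cells 99 and 16. S100g was the most restricted. In AT2-like cells, which make surfactant, it was at 1954 CPM (1847 to 2065) at low burden and 1382 CPM (1290 to 1480) at high burden, and the next class, ciliated-like cells, was at 41.7 and 22.8 CPM. AT2-like cells held 86.3% of its UMIs at low and 60.7% at high burden. In the carcinoma-like cells it was at 6.99 CPM, and in smooth muscle or pericyte-like cells at high burden no UMI was counted, where 3 counts would have been 13.1 CPM. Over 23 class-by-library sums with at least 20 cells, the genes whose levels were most like that of S100g among 9151 candidates were Lamp3 (Pearson r of 0.985 on log2 of CPM plus 10), Sftpc (0.982) and Slc34a2 (0.971), all products of AT2 cells. These sums share 2 libraries and their depths, so such correlations describe the classes and carry no test. Lamp3, Sftpc and Slc34a2 were also among the markers that named the AT2-like class, so their likeness to S100g is no separate evidence.

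S100a1, which binds calcium-handling proteins of muscle and neurons, was highest in ciliated-like cells in both libraries, at 1253 and 1056 CPM. Mesothelial-like cells came next, at 536 and 424 CPM, and alveolar macrophage-like cells had 532 CPM at low burden. T cell-like cells were lowest, at 46.0 and 34.3 CPM. Over all kept cells the intervals of the libraries overlapped, at 274 CPM (265 to 283) and 277 CPM (273 to 282). Its 3 most similar genes were Bnip3 (r of 0.886), 4931406C07Rik (0.848) and Slc39a9 (0.822).

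S100a13, which takes part in the release of proteins that lack a signal peptide, such as fibroblast growth factor 1, was highest in AT1-like cells (624 CPM) and blood endothelial-like cells (592 CPM) at low burden, and those levels overlapped by counting error. Blood endothelial-like cells led at high burden with 554 CPM (ratio −0.10, −0.30 to 0.10). Across the 23 sums S100a13 and its divergent neighbour S100a1 had an r of 0.330, and T cell-like cells, the lowest class for S100a1, had 252 and 249 CPM of S100a13. The genes closest to S100a13 were Vamp3 (0.842), Csnk2a1 (0.825) and Rbms1 (0.813).

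S100a10, the partner of annexin A2, was highest in T cell-like cells (2106 CPM) and natural killer-like cells (2013 CPM) at low burden, whose intervals overlapped. At high burden mesothelial-like cells (2469 CPM), T cell-like cells (2410 CPM) and carcinoma-like cells (2074 CPM) led, and club-like cells were lowest in both libraries, at 88.1 and 338 CPM. The genes closest to it were Tmsb10 (0.819), Rpl36 (0.809) and Rpl7a (0.802). S100a11, the partner of annexin A1, was highest at low burden in ciliated-like (1826 CPM) and AT1-like cells (1629 CPM) and lowest in blood endothelial-like cells (225 CPM). At high burden mesothelial-like (2128 CPM) and smooth muscle or pericyte-like cells (1877 CPM) were highest, and carcinoma-like cells had 928 CPM. Its closest gene of the 9151 was Anxa1 (0.730), which encodes that partner, followed by Plp2 (0.675) and Hsph1 (0.649).

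S100a4, which binds non-muscle myosin, was highest in leukocytes at low burden. Monocyte-like cells had 1301 CPM (1193 to 1417), macrophage-like cells 621 CPM and T cell-like cells 542 CPM, while fibroblast-like cells had 72.0 CPM. The macrophage-like value rested on few cells, since 1 of the 54 cells held 64.8% of its S100a4 UMIs and the other 53 had 243 CPM. Of the S100a4 UMIs at low burden, 29.4% lay in monocyte-like and 18.9% in T cell-like cells. At high burden 88.6% lay in the carcinoma-like cells, at 2508 CPM (2491 to 2525), and T cell-like cells came next with 973 CPM. Its closest genes were Lgals1 (0.788), Hn1 (0.773) and Fam64a (0.771).

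S100a6, also called calcyclin, was highest at low burden in mesothelial-like (7970 CPM in 14 cells) and AT1-like cells (5204 CPM in 37 cells). Fibroblast-like cells followed at 2314 CPM and held 37.5% of its UMIs. Blood endothelial-like cells were lowest at 127 CPM. At high burden carcinoma-like cells had 16238 CPM (16195 to 16282) and held 89.6% of the S100a6 UMIs, mesothelial-like cells had 9412 CPM, and blood endothelial-like cells were again lowest, now at 1576 CPM. Its closest genes were Timp1 (0.769), Dnm1 (0.762) and Sphk1 (0.738).

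S100a8 and S100a9, the calprotectin pair, were highest in monocyte-like cells at low burden, at 499 and 291 CPM, followed by macrophage-like cells at 245 and 222 CPM and alveolar macrophage-like cells at 221 and 155 CPM. In monocyte-like cells 1 of 112 cells held 50% of the S100a8 and 47.1% of the S100a9 UMIs, and without the top cell of each class they were at 251 and 155 CPM. Without the cells of the neutrophil gate they were at 160 CPM of S100a8, an interval that overlapped that of B cell-like cells (128 CPM), and 72.7 CPM of S100a9, below club-like cells (88.1 CPM). At high burden dendritic-like cells had the highest values, at 316 and 281 CPM, of which 1 cell held 64.6% and 66.4%. Without the top cell of each class they were at 113 and 95.5 CPM and no longer first. The highest values were then those of carcinoma-like (143 CPM) and macrophage-like cells (134 CPM) for S100a8 and club-like (118 CPM) and macrophage-like cells (101 CPM) for S100a9. For S100a8, 14 of the 15 pairs of neighbours in the order of classes at low burden and 10 of the 11 at high burden did not differ by counting error. Each was the other's closest gene (r of 0.826), with Wfdc17 (0.752) and Ms4a6d (0.736) next for S100a8 and Ccl9 (0.766) and Ms4a6d (0.765) next for S100a9.

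**Figure D1:**
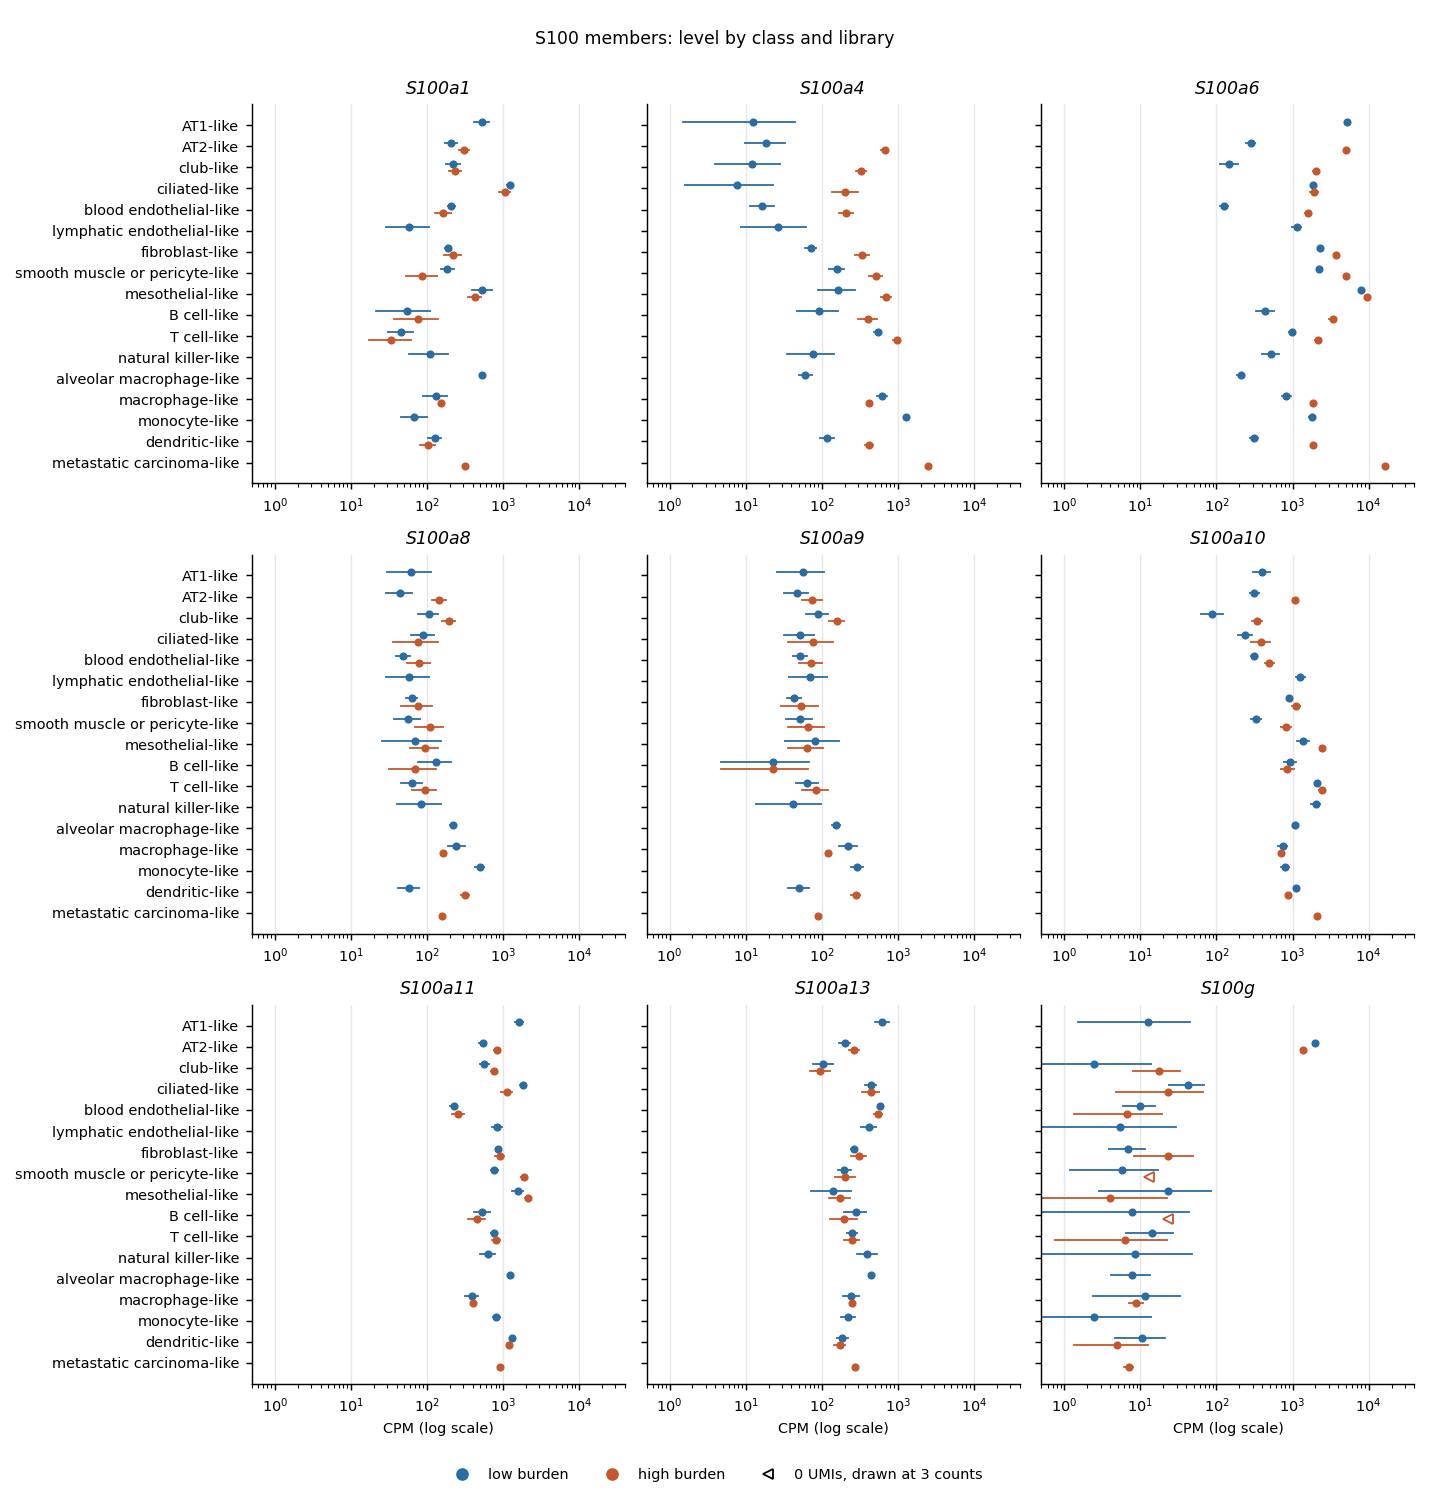
Level of each S100 member (CPM, log scale) in each class with at least 10 cells in the library, low burden in blue and high burden in orange, with bars for the 95% counting interval. S100g stood out in AT2-like cells alone (1954 and 1382 CPM), and S100a4 and S100a6 points of the high burden library lie to the right of the low burden ones in most classes, with the macrophage-like S100a4 level (621 and 422 CPM) in the other order.

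Over all kept cells, S100a4 was higher at high burden by 3.73 on the log2 scale (136 to 1810 CPM), S100a6 by 3.52 (1006 to 11581 CPM) and S100a10 by 1.18 (729 to 1646 CPM). S100g was lower, with a log2 ratio of −2.04 (109 to 26.6 CPM). These 3 higher members compare with 12.6% of all genes tested that were higher in this comparison, and the 1 lower member with 15.2%. AT2-like cells, which had most of the S100g, held 4.82% of all UMIs at low and 1.17% at high burden. Within that class the S100g ratio was −0.50, which was not called. S100a8, S100a9, S100a1, S100a11 and S100a13 had ratios between −0.39 and 0.46. Without the carcinoma-like cells, 2 of the 9 members were higher, against 6.49% of all genes, and 0 were lower, against 10.8%: S100a4 (136 to 572 CPM, 2.07) and S100a6 (1006 to 3325 CPM, 1.72). The carcinoma-like class has no low burden counterpart, so its levels enter no ratio.

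Within classes, 7 had at least 20 cells in each library, which gave 63 pairs of a member and a class. Of these, 53 passed the limits on low values, 15 were at least 2-fold higher at high burden, 0 were at least 2-fold lower and 38 were neither. The 10 pairs that did not pass were S100g in 6 classes, S100a1 in B cell-like and T cell-like cells, and S100a8 and S100a9 in B cell-like cells. The higher pairs were S100a6 in 6 of 7 classes, S100a4 in 5 of 7, S100a8 in 2 of 6, S100a9 in 1 of 6 and S100a10 in 1 of 7. S100a1, S100a11, S100a13 and S100g were higher in none of the classes in which they passed.

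By class, 4 of the 9 members that passed in AT2-like cells were higher, where 11.9% of the genes tested were. The figures were 2 of 5 against 2.7% in B cell-like cells, 1 of 7 against 9.78% in T cell-like cells, 2 of 8 against 0.927% in blood endothelial-like cells, 4 of 8 against 4.06% in dendritic-like cells, 1 of 8 against 2.04% in fibroblast-like cells and 1 of 8 against 14.3% in macrophage-like cells. No member was at least 2-fold lower in these classes, where the share of all genes tested that were lower was 4.56%, 11%, 8.05%, 2.97%, 4%, 9.03% and 10.3% in the same order. The T cell-like and macrophage-like counts of higher members are close to their background. Without the cells of the neutrophil gate the dendritic-like count was 2 of 8. The median ratio of the members that passed, beside that of all genes tested, was 0.68 against 0.21 in AT2-like, −0.12 against −0.11 in B cell-like, 0.37 against 0.16 in T cell-like, 0.57 against −0.02 in blood endothelial-like, 0.86 against 0.08 in dendritic-like, 0.26 against −0.09 in fibroblast-like and −0.03 against 0.06 in macrophage-like cells. In dendritic-like cells it was 0.41 without the neutrophil gate.

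**Figure D2:**
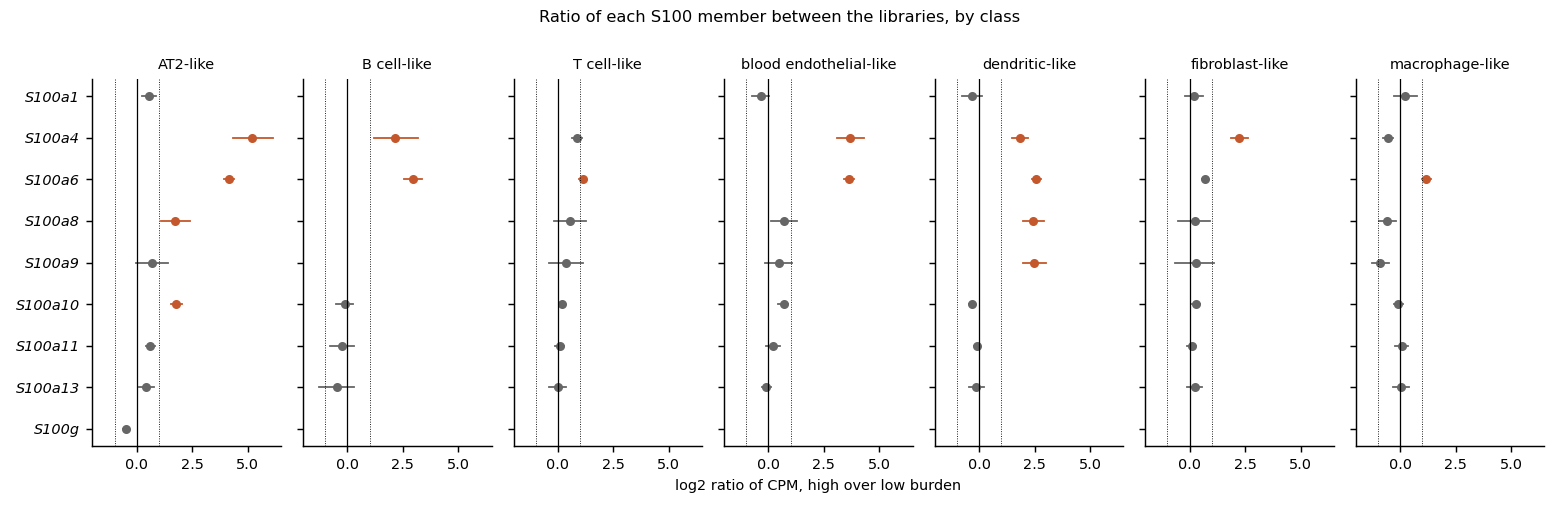
Log2 ratio of CPM, high over low burden, for each member that passed the limits on low values, by class, with 95% counting intervals and dotted lines at 2-fold. Orange points are at least 2-fold higher, and the 15 of them are mostly S100a4 and S100a6.

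S100a6 was at least 2-fold higher in all 7 compared classes but fibroblast-like cells, the one with most of it at low burden. In blood endothelial-like cells it went from 127 to 1576 CPM (ratio 3.64, 3.42 to 3.85). Different clusters held most of that class: clusters 11, 17, 18 and 19 had 351 of the 396 low burden cells and 3 high burden cells, and cluster 23 had 42 of the 56 high burden cells and 9 low burden cells. Within cluster 23 S100a6 was at 70.6 CPM (3 UMIs) and 1313 CPM, and within cluster 20 (36 and 11 cells) at 191 and 2722 CPM. In dendritic-like cells it went from 311 to 1859 CPM (2.58, 2.38 to 2.79). In B cell-like cells it went from 433 to 3357 CPM (2.95), in macrophage-like cells from 824 to 1869 CPM (1.18) and in T cell-like cells from 981 to 2139 CPM (1.12). In fibroblast-like cells, which already had 2314 CPM, it was at 3706 CPM (0.68). The low burden levels ranged widely, while at high burden 4 of the 7 classes lay between 1576 and 2139 CPM. Every kept cell at high burden had at least 1 S100a6 UMI, against 64.5% at low burden. With each cell thinned to 2000 UMIs, to take out the difference in depth, the shares were 98.0% and 51.3% of cells, and among blood endothelial-like cells 94.6% and 20.7%.

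S100a4 was higher in blood endothelial-like cells (16.6 to 210 CPM, 3.66), fibroblast-like cells (72.0 to 341 CPM, 2.24), B cell-like cells (92.9 to 405 CPM, 2.13) and dendritic-like cells (118 to 421 CPM, 1.84). In T cell-like cells it was at 542 and 973 CPM (0.84). In macrophage-like cells it was at 621 and 422 CPM (−0.56, −0.78 to −0.32), and without the cell of each library with most S100a4 UMIs this order turned, to 243 and 419 CPM (0.79, 0.41 to 1.19). After thinning, 30.4% of blood endothelial-like cells had an S100a4 UMI at high and 3.54% at low burden, and 48.8% and 9.74% of fibroblast-like cells.

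Markers of the carcinoma-like class were also higher at high burden in the 7 compared classes. The summed level of the 10 carcinoma markers, among them Sox9, Twist1 and Cdkn2a, was 2347 CPM in carcinoma-like cells. In blood endothelial-like cells it was 362 CPM at low burden, where Ccnd1, Cdkn2a, Hmga2 and Twist1 were the 4 of 10 markers detected and Sox9 was at 0. Ccnd1 was detected at low burden in each of the 7 compared classes, in a library with no carcinoma-like cells. How much single markers added to the sum was not tested. At high burden it was 560 CPM, with 9 of 10 detected. Set as a share of the carcinoma-like level, the difference between the libraries in the 6 classes other than AT2-like cells was 7.13% to 10.7% for the markers and 6.44% to 18.0% for S100a6. For S100a4 it was 7.72% in blood endothelial-like, 10.7% in fibroblast-like, 12.1% in dendritic-like, 12.5% in B cell-like and 17.2% in T cell-like cells, and −7.91% in macrophage-like cells. The order of these 6 classes was not the same for the markers and S100a6. Macrophage-like cells had the largest share for the markers (10.7%) and the smallest for S100a6 (6.44%), and B cell-like cells had 7.46% and 18.0%. When the lowest class level of each gene in each library was subtracted as an estimate of free RNA, S100a6 stayed at least 2-fold higher in 2 classes, AT2-like (4.49) and B cell-like cells (2.54). In the same setting it was at 0.62 in dendritic-like and −0.04 in fibroblast-like cells, and changed sign in T cell-like (−0.60) and macrophage-like cells (−1.25). Blood endothelial-like cells themselves set that lowest level of S100a6 in both libraries, and that of S100a4 at high burden. S100a4 stayed at least 2-fold higher in 3 classes in place of 5, AT2-like (5.41), B cell-like (1.20) and fibroblast-like cells (1.03), and was at 0.94 in dendritic-like, 0.51 in T cell-like and −1.53 in macrophage-like cells. The part of carcinoma RNA in these differences was not tested beyond this.

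**Figure D3:**
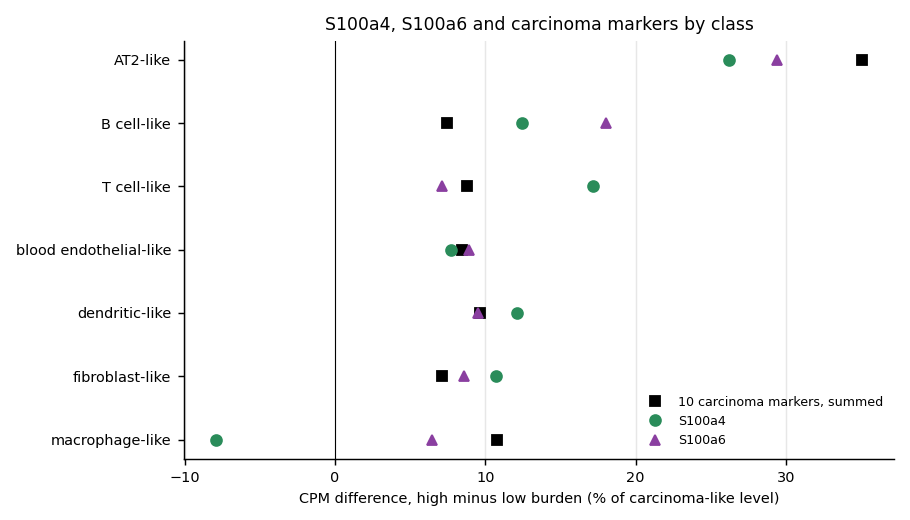
Difference in CPM between high and low burden for the summed carcinoma markers (squares), S100a4 (circles) and S100a6 (triangles), each as a percentage of its level in carcinoma-like cells, in the 7 compared classes. The 3 symbols lie close together in blood endothelial-like cells (8.46%, 7.72% and 8.93%), all are highest in AT2-like cells (35.1%, 26.2% and 29.4%), and S100a4 lies apart below 0 in macrophage-like cells.

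AT2-like cells had the largest ratios of S100a4, S100a6 and S100a10 among the compared classes. S100a4 was at 18.7 and 675 CPM (5.17, 4.35 to 6.14), S100a6 at 281 and 5052 CPM (4.17, 3.95 to 4.39), S100a10 at 315 and 1086 CPM (1.78, 1.55 to 2.02) and S100a8 at 43.7 and 145 CPM (1.73, 1.10 to 2.40). For S100a8 the ratio in dendritic-like cells was larger with all cells (2.44). Thinned to 2000 UMIs per cell, the AT2-like ratio of S100a8 was 0.91, below 2-fold, and without the top cell its high burden level was 103 CPM. Different clusters held most of the class in the libraries: cluster 28 with 100 of 115 cells at low and cluster 34 with 43 of 61 at high burden. Between these clusters alone the ratios were smaller, 4.22 for S100a4 (14.4 to 269 CPM), 3.37 for S100a6 (205 to 2123 CPM), 1.17 for S100a8 and 0.86 for S100a10, so that S100a10 was no longer 2-fold higher. The other 18 AT2-like cells at high burden had 1139 CPM of S100a4, 8390 CPM of S100a6 and 1698 CPM of S100a10, with carcinoma markers at 1580 CPM against 331 CPM in cluster 34. S100g showed the reverse. Over the class it was at 1954 and 1382 CPM (−0.50), and between clusters 28 and 34 at 2113 and 2086 CPM (−0.02, −0.16 to 0.12), while the 18 other cells had 580 CPM. Of those 18 cells, 17 lay in cluster 27, which also met 88.9% of the AT1 markers, with Ager among its leading genes. AT1-like cells at low burden had 5204 CPM of S100a6 and 12.5 CPM of S100g. The parts of AT1 and of carcinoma RNA in the 18 cells were not tested.

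Some clusters held cells of both libraries. In dendritic-like cluster 44 (83 and 80 cells), S100a6 was at 316 and 1825 CPM (2.53) and S100a4 at 68.1 and 298 CPM (2.13), while S100a10 (−0.35) and S100a11 (−0.13) were not 2-fold apart. In fibroblast-like cluster 64 (77 and 28 cells), S100a4 was at 23.9 and 257 CPM (3.43) and S100a6 at 1807 and 3025 CPM (0.74). T cell-like cells differed among themselves within the low burden library. Cluster 36, led by Dapl1 and Cd3d, had 72 of the 152 cells and 59.5 CPM of S100a4 and 97.8 CPM of S100a6. Clusters 35 and 37 had 1114 and 1361 CPM of S100a4 and 2272 and 1868 CPM of S100a6. Cluster 41, which held 26 of the 36 T cell-like cells at high burden, had 957 CPM of S100a4 and 2045 CPM of S100a6 there, and its 12 low burden cells had 729 and 1084 CPM. In macrophage-like cells cluster 46 held 50 of the 54 low burden cells, and clusters 53 to 58 held most of the high burden ones.

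The 1395 carcinoma-like cells fell into 10 clusters that were made without the S100 genes, and the members varied unequally among them. S100a10 (1759 to 2363 CPM) and S100a11 (766 to 1120 CPM) varied by 1.34-fold and 1.46-fold. S100a6 ran from 10098 to 20620 CPM and S100a4 from 1285 to 3681 CPM, both highest in cluster 9, led by Spp1, Lcn2 and Mgp. S100a8 varied most, from 92.6 to 416 CPM, and was highest in cluster 2, also led by Spp1, where S100a4 was lowest and S100a1 highest (491 CPM). In cluster 2, 1 cell held 34.5% of the S100a8 and 58.2% of the S100a9 UMIs. Without the top cell of each cluster S100a8 in cluster 2 was at 273 CPM, still the highest, with a range of 3.00-fold in place of 4.49-fold, while S100a9 in cluster 2 went from 188 to 78.9 CPM and was no longer the highest. Single carcinoma-like cells were spread more widely still, with quartiles of 8983 and 19589 CPM around a median of 13672 CPM for S100a6, and of 989 and 3365 CPM around 2020 CPM for S100a4.

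S100a8 and S100a9 were held by few cells. At low burden 1% of the kept cells (25 cells) had 45.9% of the S100a8 and 42.1% of the S100a9 UMIs, and 45 cells had 50% or more of S100a8. At high burden 1% (30 cells) had 28.9% and 29.8%. By contrast, the top 1% of cells had 7.25% of the S100a13 UMIs at low burden and 5.86% at high burden. For S100g the shares were 41.6%, close to that of S100a9, and 50.9%, above both.

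**Figure D4:**
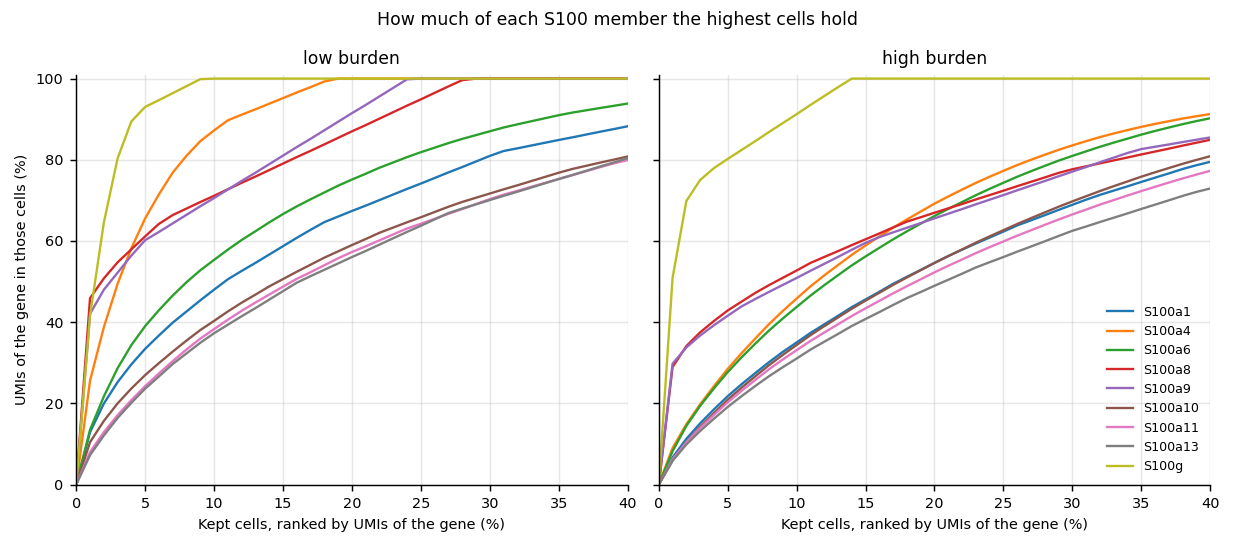
Share of each member's UMIs (vertical axis, %) held by the kept cells with most of it (horizontal axis, % of cells, up to 40%), for the low and the high burden library. S100g, S100a8 and S100a9 rise most steeply within the first 1% of cells (41.6%, 45.9% and 42.1% at low burden), and S100a13 least.

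A gate of neutrophil markers on single cells named 27 cells at low and 37 at high burden, which were spread over clusters of other classes, with 4 and 8 of them near the limit of the gate. Those cells held 40.0% of the S100a8 UMIs at low burden, at 5020 CPM, and 21.3% at high burden, at 4130 CPM. For S100a9 the shares were 38.4% and 24.9%. The cell with most S100a8 at high burden had 468 S100a8 and 358 S100a9 UMIs, lay in a carcinoma-like cluster, and had 61 UMIs of Retnlg, a neutrophil gene, with none of Sox9 or Twist1. In dendritic-like cells the size of the difference between the libraries depended on 1 such cell, with 164 of the 254 S100a8 UMIs and 150 of the 226 S100a9 UMIs at high burden. The class was at 58.2 and 316 CPM of S100a8 (2.44, 1.98 to 2.94) and 50.2 and 281 CPM of S100a9 (2.48, 1.98 to 3.02). Without the top cell of each library it was at 56.0 and 113 CPM (1.01, 0.47 to 1.58) and 48.1 and 95.5 CPM (0.99, 0.40 to 1.60). Without the cells of the neutrophil gate the ratios were 0.96 and 0.93, and neither member was 2-fold higher.

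In macrophage-like cells S100a8 was at 245 and 164 CPM (−0.58) and S100a9 at 222 and 119 CPM (−0.90, −1.28 to −0.49), and without the top cell of each library the order turned, to 93.7 and 134 CPM (0.51, −0.07 to 1.16) and 74.2 and 101 CPM (0.45, −0.21 to 1.18). The 12 neutrophil markers summed to 422 CPM in macrophage-like cells at low burden, with Mmp8, Ly6g and Stfa2l1 at 0, and to 167 CPM at high burden. In dendritic-like cells they summed to 74.0 and 95.8 CPM, with Mmp8 and Ly6g at 0 in both libraries. Thinned to 2000 UMIs, the share of cells with an S100a8 UMI at high burden was 21.2% in carcinoma-like, 18.2% in macrophage-like, 16.5% in dendritic-like, 14.3% in blood endothelial-like and 9.52% (2 of 21 cells) in B cell-like cells, the last a class that should lack the gene. Before thinning these shares were 87.2%, 66.5%, 50.5%, 48.2% and 28.6%, with median depths of 21845, 10315, 6869, 7206 and 5906 UMIs. At low burden 24.2% of B cell-like cells had an S100a8 UMI after thinning. How much of the shares in the other classes was background was not tested.

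At high burden there were 1.78 S100a8 UMIs for each S100a9 UMI in carcinoma-like cells (1.70 to 1.87, from 5177 and 2903 UMIs), 1.37 in macrophage-like cells (1.27 to 1.48) and 1.12 in dendritic-like cells (0.94 to 1.35). AT2-like cells had 1.93 (1.33 to 2.84), or 1.33 (0.89 to 2.01) without their top cell, and monocyte-like cells at low burden had 1.71 (1.36 to 2.17). Without the cells of the neutrophil gate it was 1.88 in carcinoma-like (1.79 to 1.98) and 1.32 in macrophage-like cells (1.20 to 1.45). Among cells with at least 10 S100a8 UMIs, 22 of 52 carcinoma-like cells had less than 10% as many S100a9 UMIs and 8 had none, against 2 of 23 other cells at high burden and 0 of 16 cells at low burden. These groups differed in neutrophil markers too. At least 3 of them were found in 11 of the 52, 18 of the 23 and 15 of the 16 cells. Carcinoma-like cells were also deep, with a median of 21845 UMIs against 13998 over all kept high burden cells. One carcinoma-like cell had 169 S100a8 and 0 S100a9 UMIs, together with 5 UMIs of Sox9, 8 of Twist1 and 28 of Cdkn2a. That cell was described after its values were seen.

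**Figure D5:**
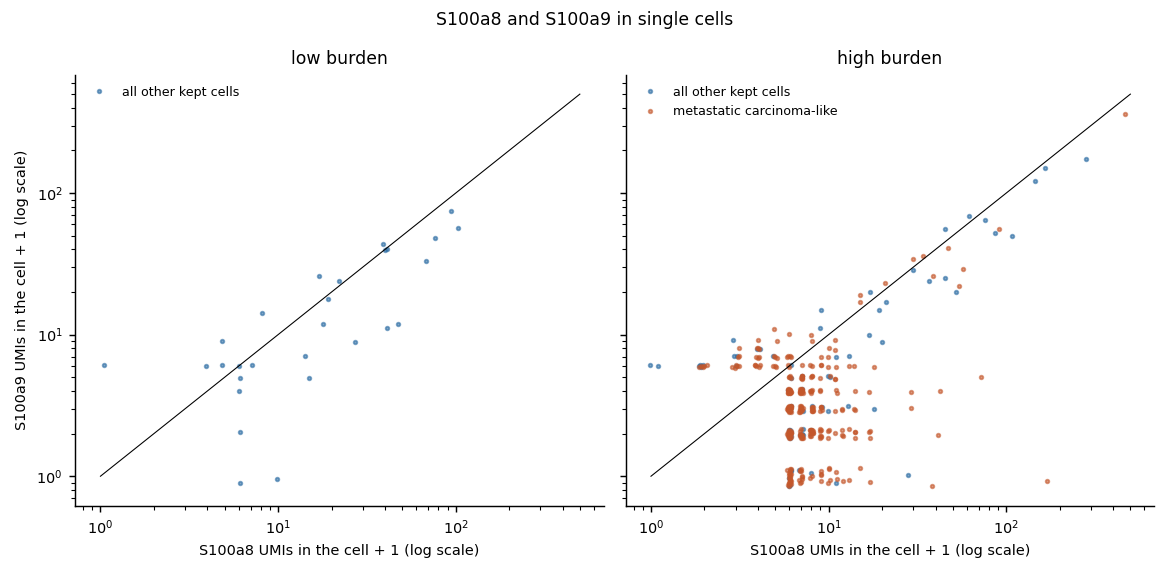
S100a8 against S100a9 UMIs in single kept cells with at least 5 UMIs of either (UMIs plus 1, log scales, with a small random shift), with carcinoma-like cells in orange and all others in blue, and a line where both are equal. Cells lie on both sides of the line and up to the cell with 468 and 358 UMIs, and among cells with at least 10 S100a8 UMIs at high burden 22 of 52 carcinoma-like cells had less than 10% as many S100a9 UMIs, among them the cell with 169 and 0, against 2 of 23 others. At least 3 neutrophil markers were found in 18 of those 23 others and in 11 of the 52.

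Other genes of S100 biology were read from lists. Of 11 S100 binding partners, 8 passed in AT2-like cells and Anxa1 was higher (60.9 to 186 CPM, 1.61), with Anxa6 lowest at −0.56, where 11.9% of all genes tested were higher. In T cell-like cells 1 of 8 was higher against 9.78% of all genes, Anxa2 (262 to 539 CPM, 1.04), and in blood endothelial-like, dendritic-like and fibroblast-like cells none of 9 was 2-fold apart. In macrophage-like cells 1 of 10 was higher and 2 were lower, beside 14.3% and 10.3% of all genes in that class: Il1a (7.66 to 44.6 CPM, 2.54, from 2 UMIs at low burden, 0.68 to 5.59), Anxa1 (387 to 193 CPM) and Ahnak, a scaffold that binds S100a10 with annexin A2 (383 to 136 CPM, −1.49). In B cell-like cells only Ahnak passed, at 0.75.

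Of 6 receptor genes for S100a8 and S100a9, all 6 passed in macrophage-like cells, where Ager, which encodes the receptor RAGE, was lowest (134 to 41.8 CPM, −1.68) and Bsg highest (0.19), with 3 of 6 lower, beside the same 10.3%. Ager is also the leading AT1 gene in lung and was at least 2-fold lower in 5 of the 7 classes, T cell-like, blood endothelial-like, dendritic-like, fibroblast-like and macrophage-like cells, where 2.97% to 10.3% of all genes tested were. AT1-like cells went from 37 to 9 cells, and a link with the Ager levels was not tested. Cd36 was lower in fibroblast-like cells (67.9 to 22.7 CPM, −1.58).

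Of 16 calmodulin and other EF-hand genes, 4 to 14 passed by class and only Calu, in AT2-like cells (48.4 to 118 CPM, 1.29), was 2-fold apart in any of the 7 classes. Of 11 genes of vitamin D and calcium transport, up to 3 passed by class, with none 2-fold apart. Of 7 other S100 genes, S100a16 alone passed in any compared class and was not 2-fold apart there (−0.16 to 0.34). Among 11 neutrophil granule and secreted genes, Lcn2, which encodes lipocalin 2, was higher in the 5 classes in which it passed, from 206 to 1910 CPM in AT2-like cells (3.21), from 2.07 to 129 CPM in blood endothelial-like cells (5.96), from 1.32 to 141 CPM in dendritic-like cells (6.73, 4.22 to 12.05, with 1 UMI at low burden) and from 1.39 to 182 CPM in fibroblast-like cells (7.04, 5.40 to 9.36, with 3 UMIs). In macrophage-like cells Lcn2 went from 0 UMIs to 147 CPM, at least 12.8-fold higher against a floor of 3 counts. Another gene of this list was higher in each of these classes, Cxcl2 or, in macrophage-like cells, Wfdc21. Counts of higher genes were thus 2 of 2 that passed for AT2-like and 2 of 4 for macrophage-like cells. They were 2 of 3 each for blood endothelial-like, dendritic-like and fibroblast-like cells, and none was lower. Of all genes tested, 11.9%, 14.3%, 0.927%, 4.06% and 2.04% were higher in these classes, in that order. Lcn2 was also among the leading genes of carcinoma-like clusters, and that part was not tested.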

How the data were processed

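One 10x Genomics library was made from the lung of 1 mouse in each group. The authors ran Cell Ranger 2.0.2 on mm10 with the PYMT transgene appended and deposited UMI counts per gene and cell. Their text also names an aggregation step, with fewer low burden cells after it than the matrix holds, and it is not known from the sources used here at which side of that step the matrix was taken. The strand setting of the counting is not given in the sources used here.

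Cells with fewer than 1000 or more than 7000 detected genes or over 10% mitochondrial counts were removed (195 at low and 88 at high burden), the limits of the study. Scrublet marked 0.364% and 0.231% of cells, too few to count as working, and doublets were kept. Cells were clustered at 2 levels (Leiden, scanpy 1.11.5, 10 components, 15 neighbours, resolution 1) without the 18 S100 genes and PYMT. Of 71 clusters, 54 were named from markers, 8 were mixed and 9 unnamed. The rule for mixed clusters and the second level were set after clusters were seen. Counts were summed by class and library and scaled to CPM, with exact 95% Poisson intervals for levels, exact conditional binomial intervals for ratios (tested on simulated data) and exact binomial intervals for shares. A count of 0 was set to 3 counts in ratios. Named genes were the 9 members, the 3 genes most correlated with each, and the highest and lowest of each list by class. The members, lists and markers were chosen with earlier results of these data known.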

Additional observations from a re-analysis of the deposited data

Results flagged for a closer look

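Some members differed in opposite directions between classes, and the difference between the classes was not tested. S100a4 had a log2 ratio (high over low burden) of 5.17 in AT2-like and −0.56 in macrophage-like cells. S100a8 was at 2.44 in dendritic-like and −0.58 in macrophage-like cells, and S100a9 at 2.48 and −0.90. S100a10 was at 1.78 in AT2-like and −0.33 in dendritic-like cells. The 3 macrophage-like values turned positive without 1 cell of each library, at 0.79, 0.51 and 0.45.

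The 88 high burden cells that the filter removed, which enter no comparison, held more RNA of 8 members than the 195 removed low burden cells, and less of S100g (6.37 against 73.9 CPM). S100a6 was at 15530 CPM there, S100a4 at 1848 CPM, S100a10 at 1672 CPM, S100a11 at 946 CPM, S100a8 at 293 CPM, S100a9 at 263 CPM, S100a1 at 249 CPM and S100a13 at 195 CPM. Of the S100a8 UMIs, 58.2% were in 1 removed cell with 22.8% mitochondrial counts.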

How the results depend on the processing

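No paired analysis was possible because there is 1 library per group. Over 13 alternatives, 972 values were recomputed, of which 744 moved by less than counting error (the counts of pairs, by less than 1.5 times) and 226 moved by more. The other 2 were ratios called 2-fold apart that changed sign. They were S100a6 in T cell-like (−0.60) and macrophage-like cells (−1.25), with the lowest class level of each library subtracted. Smaller ratios that changed sign, such as S100a4 in macrophage-like cells without the top cell, were counted by the size of the move alone. The count of higher pairs, 15, was 31 with a marker gate on single cells, which compared 12 classes and 96 pairs, and 12 to 20 otherwise. The count of lower pairs, 0, was 2 with a limit of 500 genes (S100a8 and S100a9 in B cell-like cells), 2 with no filter on low counts (S100g in T cell-like and dendritic-like cells) and 6 with the subtraction. The last count includes S100a4 in blood endothelial-like cells. That class set the lowest S100a4 level at high burden, so its level there became 0 by construction. Pairs left at 0 at low burden were counted as higher in the same way. Of 21 called ratios, 19 to 21 stayed at least 2-fold apart under each alternative other than the subtraction, which kept 13 of the 18 it could give. Leaving out shared barcodes, cells of the neutrophil gate, or the top cell of a class or cluster for S100a8 and S100a9 was chosen after seeing the data. Counting error limits low members most, such as S100a8 and S100a9 in B cell-like cells.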
